A study of Mus musculus with 55 samples.

Results

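The regions described here were distal binding sites of the sterol regulatory element binding proteins (SREBPs) that carried no peak of the liver X receptors (LXRs) in mouse bone marrow derived macrophages. They were chosen from the authors' merged table of transcription factor regions (mouse build mm10) as those whose 200 bp window overlapped a SREBP peak by at least 1 bp, overlapped no LXR peak, and was not annotated as promoter-TSS. That left 13508 of 80096 regions. In the wider 1000 bp window used for H3K27ac, 751 of them (5.56%) did have an LXR peak. For comparison, 1516 regions were promoter sites with SREBP and no LXR, 12748 carried both peaks and 9064 were distal LXR sites without SREBP. The choice used only peak positions and annotation, and no H3K27ac or p300 value of any treatment.

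The study measured chromatin in macrophages from C57BL/6 mice after the milk oligosaccharide 3'-sialyllactose (3'SL), the bacterial endotoxin lipopolysaccharide (LPS), or both. Cells were grown from bone marrow with L-cell medium as the source of M-CSF, replated, and starved overnight in 0.5% serum. They then received PBS, LPS at 10 ng/ml, 3'SL at 100 µg/ml, or both agents together, and were taken at 2 h or 6 h. H3K27 acetylation (H3K27ac), a histone mark of active promoters and enhancers, and p300, an acetyltransferase that writes it, were each read by ChIP-seq. For H3K27ac, PBS had 2 libraries at 2 h and 1 at 6 h, and every other group had 2. For p300, PBS had 1 library at each time and every other group had 2. The SREBP peak list came from 1 library of cells given the synthetic LXR agonist GW3965 at 1 µM for 18 h. The series has 2 LXR libraries behind its single LXR list, of cells given the same treatment. Neither SREBP nor LXR binding was thus measured under PBS, LPS or 3'SL. The labels do not say that numbered replicates came from separate mice or cultures, so every p-value measures the spread between these libraries, which may be technical.

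Library totals ran from 3199270 to 39597624 tags, the lowest being the 2 h PBS library of p300. In the first replicate of p300, 5.23% to 7.54% of tags lay in table regions, against 15.96% to 22.38% in the second and 3.43% in the input. Both H3K27ac libraries titled as 3'SL with LPS, replicate 2, carry an input's source name. The 2 h one also carries a PBS treatment label and is called the library of conflicting labels. Those libraries held 46.58% and 47.46% of their tags in table regions, against 6.59% to 6.97% in the inputs, and their titles were followed. The replicate 1 H3K27ac libraries titled as 2 h are labelled 1 h in the treatment field. Among the macrophage markers checked, 7 of 8 had a promoter region in the table with H3K27ac, with means under PBS of 299 and above. Of 5 neutrophil and 5 dendritic cell markers 1 each had one, S100a8 at a mean of 29.2 and Siglech at 2.9, and no T cell, B cell, fibroblast or erythroid marker did.

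SREBPs are membrane-bound precursors that are cut when sterols run low. The released part enters the nucleus, binds sterol regulatory elements or E-boxes, and turns on genes of cholesterol and fatty acid synthesis and uptake. LXRs are nuclear receptors for oxidised sterols that drive cholesterol export in macrophages and also raise Srebf1, the gene of SREBP1. Inflammatory enhancers of macrophages are opened by PU.1 and C/EBP factors and are acetylated when LPS brings NF-kB, AP-1 and interferon regulatory factors (IRFs) to them.

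The windows below hold letters that the rule did not use and that some of the members carry. In the first set, capitals mark the sterol regulatory element letters TCACNCCAC, on either strand. The windows are of mm10, read on the plus strand from the RefSeq GRCm38.p6 genome, with 201 letters around the authors' region middle unless stated. Acsl4 (an acyl-CoA ligase; chrX:142385054-142385254, intron 1 of 15), Maf (a macrophage transcription factor; chr8:115583254-115583454), Lpl (lipoprotein lipase; chr8:68952807-68953007, in a LINE repeat), B930018H19Rik (chr8:34592695-34592895) and D730003I15Rik (chr1:191230800-191231000) are named for the nearest gene in the authors' annotation. For Fasn, the fatty acid synthase, only 27 letters around the match are shown, since the region lies in the 5'UTR exon (chr11:120824238-120824264).
Acsl4: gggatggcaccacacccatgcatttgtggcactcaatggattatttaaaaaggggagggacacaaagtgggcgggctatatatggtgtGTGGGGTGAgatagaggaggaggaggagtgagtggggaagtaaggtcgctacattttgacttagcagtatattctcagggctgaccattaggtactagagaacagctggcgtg
Maf: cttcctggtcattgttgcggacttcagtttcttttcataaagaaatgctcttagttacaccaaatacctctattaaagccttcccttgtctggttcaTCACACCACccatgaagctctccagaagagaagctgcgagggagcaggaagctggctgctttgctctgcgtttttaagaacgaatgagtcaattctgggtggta
Lpl: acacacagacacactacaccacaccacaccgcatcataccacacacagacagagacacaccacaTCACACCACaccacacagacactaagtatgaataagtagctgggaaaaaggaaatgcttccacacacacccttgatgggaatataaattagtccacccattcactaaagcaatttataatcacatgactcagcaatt
B930018H19Rik: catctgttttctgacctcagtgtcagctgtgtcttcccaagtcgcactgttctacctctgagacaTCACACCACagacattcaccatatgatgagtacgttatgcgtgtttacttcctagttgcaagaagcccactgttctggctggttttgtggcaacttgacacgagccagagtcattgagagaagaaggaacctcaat
D730003I15Rik: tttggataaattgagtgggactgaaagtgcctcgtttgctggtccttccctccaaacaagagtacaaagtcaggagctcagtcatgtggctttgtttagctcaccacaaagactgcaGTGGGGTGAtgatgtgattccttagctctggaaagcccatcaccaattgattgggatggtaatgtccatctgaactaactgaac
Fasn: ccgccgccgGTGGGGTGAtgcccgcgc

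The second set holds members whose marks were higher under LPS, with capitals on the letters of an inflammatory factor. These are the NF-kB letters (GGGA, any base, then TTTCC, or GGGAA, any 2 bases, then CCC) at Trp53i11 (chr2:93214309-93214509, intron 5 of 9), Mir21a (chr11:86618697-86618897, intron 7 of 11 of the overlapping gene) and Kremen1 (chr11:5271932-5272132, in a LINE repeat). They are the IRF letters (GAAA, any 2 bases, then GAAA) at Gbp5 (chr3:142499175-142499375, intron 1 of 10) and Trim30a (chr7:104404587-104404787), and the AP-1 letters TGANTCA at Sod2 (chr17:13010028-13010228, intron 2 of 4). Most of the 21 IRF matches at Trim30a overlap each other in a tandem repeat.
Trp53i11: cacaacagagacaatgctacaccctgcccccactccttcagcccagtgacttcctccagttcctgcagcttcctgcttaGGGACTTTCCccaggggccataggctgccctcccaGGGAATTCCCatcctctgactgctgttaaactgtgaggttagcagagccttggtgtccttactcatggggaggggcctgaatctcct
Mir21a: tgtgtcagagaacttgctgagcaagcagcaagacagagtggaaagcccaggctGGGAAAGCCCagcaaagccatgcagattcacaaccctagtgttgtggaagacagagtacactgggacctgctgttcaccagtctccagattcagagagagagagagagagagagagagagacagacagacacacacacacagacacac
Kremen1: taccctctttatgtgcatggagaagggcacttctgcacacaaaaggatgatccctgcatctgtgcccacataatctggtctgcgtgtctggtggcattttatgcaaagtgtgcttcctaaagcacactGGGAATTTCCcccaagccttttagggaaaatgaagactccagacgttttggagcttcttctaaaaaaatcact
Gbp5: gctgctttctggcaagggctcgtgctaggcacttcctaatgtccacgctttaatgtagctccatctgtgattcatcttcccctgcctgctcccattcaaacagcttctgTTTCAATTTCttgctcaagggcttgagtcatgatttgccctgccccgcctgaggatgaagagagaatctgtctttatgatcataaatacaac
Trim30a: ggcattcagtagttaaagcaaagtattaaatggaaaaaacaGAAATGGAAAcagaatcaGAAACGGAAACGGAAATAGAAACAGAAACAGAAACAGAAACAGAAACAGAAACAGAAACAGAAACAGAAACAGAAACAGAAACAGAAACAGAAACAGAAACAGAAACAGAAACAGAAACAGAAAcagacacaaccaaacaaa
Sod2: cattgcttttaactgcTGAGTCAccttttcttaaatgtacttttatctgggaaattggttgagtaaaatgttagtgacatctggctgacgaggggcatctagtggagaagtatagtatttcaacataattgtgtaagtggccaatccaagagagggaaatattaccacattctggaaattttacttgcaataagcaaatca

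Most members lay far from annotated starts. Introns held 7256 of them (53.72%) and intergenic sequence 5606 (41.5%). The rest were at transcription ends (224), in 3'UTRs (168), in coding exons (136), in 5'UTRs (59) and in non-coding transcripts (58), with 1 not annotated. The median distance to the nearest start was 20632 bp, with quartiles of 7428 and 50422 bp. Only 450 (3.33%) lay under 1000 bp away, and the farthest lay 1086347 bp away. Some members named below were close to a start. These were Rasgrp3 at +498 bp, 1600002D24Rik at +678, Icam1 at +798, Tnf at +831 and +1382, and Nfkbiz at +1082. Their 1000 bp H3K27ac windows lie at or near the promoter, so they are distal by annotation alone.

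The members had 7277 nearest genes, and 760 of these were nearest to 4 or more members. Elmo1, which helps macrophages engulf dying cells, had the most, with 19. The table held 35 regions nearest to Elmo1, not counting those of the p65 peak list alone. The uncharacterised gene 1700019E08Rik had 16, and Mir21c and Vav3, an exchange factor of small GTPases, had 15 each. Foxp1, Marcks and Trps1 had 13 each, and Runx1, a factor of blood cell development, had 11. A nearest gene is the authors' annotation by distance and not a measured target.

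The ATAC list, of accessible chromatin, was deposited with re-analysed libraries of macrophages left untreated or given the TLR4 agonist KLA for 1 h. One of its peaks overlapped 58.9% of the members. The same share was 90.2% for regions with both SREBP and LXR, 78.2% for promoter sites and 75.5% for distal LXR sites. A peak of p300, from 1 library of cells given GW3965 at 1 µM for 18 h, overlapped 65.9% of members, against 93.5%, 33.3% and 65.1% in those 3 kinds of region. Windows covered mostly by repeats made up 9.0% of the members, 13.4% of members without an ATAC peak and 3.1% of regions with both factors. The median GC content of the members was 44.8%, against 60.2% at the promoter sites.

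The sterol regulatory element letters were found in 552 members, 4.09% of them. They were in 1.40% of all table regions, or 2.26% of those other than the regions of the p65 list alone, in 4.35% of the promoter SREBP sites, in 1.89% of regions with both factors and in 0.30% of distal LXR sites. The match lay within 25 bp of the window's middle in 364 of the 552 members (65.9%), as it does 8 bp away at Acsl4 and 1 bp away at Maf. Among the 27 distal LXR sites with a match, 5 (18.5%) had it that near. Among the members' other motifs, 38.4% of windows with an E-box, 44.1% with PU.1 letters and 43.6% with AP-1 letters had one within 25 bp.

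Other letters had different shares in the distal members and the promoter sites. The GC box GGGCGG was in 4.80% of members and 49.60% of promoter sites, and the NF-Y letters CCAAT were in 23.25% and 32.72%. The E-box CACGTG, also bound by SREBPs, was in 4.65% of members and 11.41% of promoter sites. Letters of macrophage factors had the opposite order. Those of PU.1 (GAGGAAGT) were in 11.36% of members and 4.35% of promoter sites, those of AP-1 in 17.96% and 6.13%, and those of C/EBP (TTGCNNAA) in 14.83% and 7.72%. An LXR element of AGGTCA repeats spaced by 4 bases, with up to 2 mismatches in its 12 half-site letters, was in 2.10% of members and 7.89% of distal LXR sites. All letters were searched on both strands, and matches of different motifs may overlap. These shares describe letters in a window and carry no test.

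**Figure D1:**
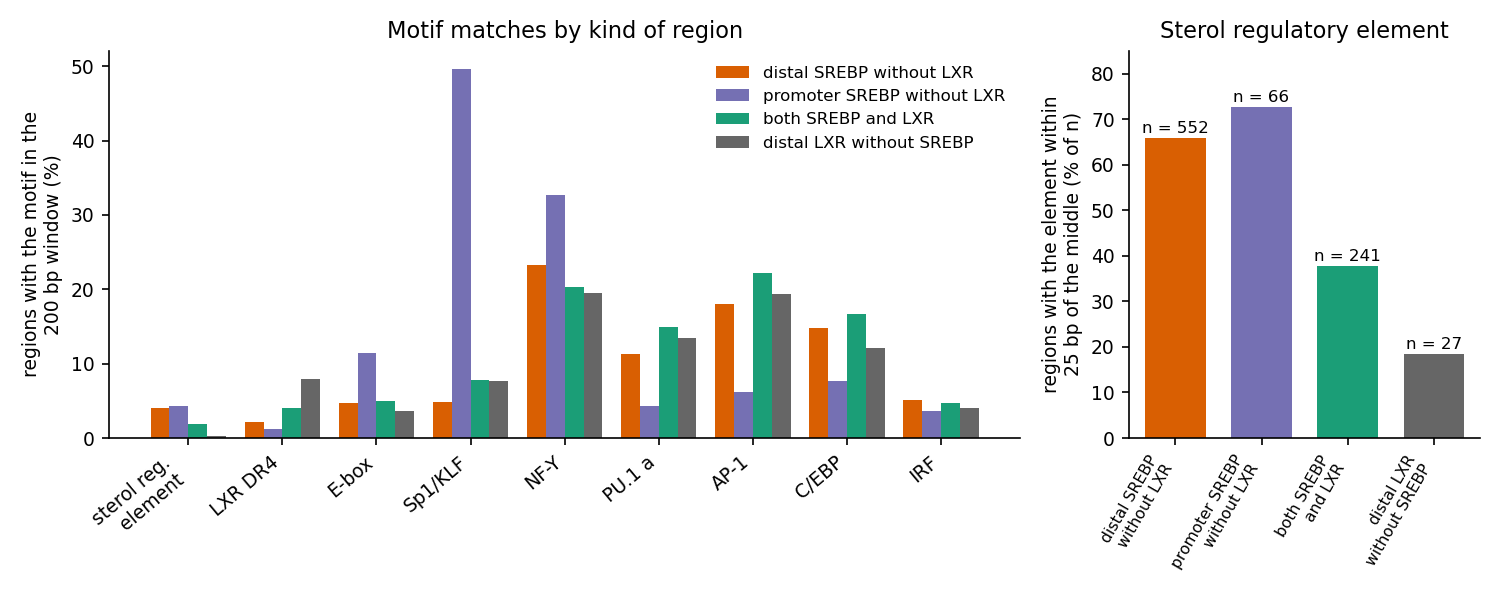
Left, the percent of regions whose 201 letter window held each motif, for distal SREBP members, promoter SREBP sites, regions with both factors and distal LXR sites. Right, the percent of sterol regulatory element matches within 25 bp of the window's middle, which was 65.9% in the members and 18.5% at distal LXR sites.

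Members with a sterol element match had fewer of the other features. Of them, 47.6% overlapped an ATAC peak and 36.1% a p300 peak, against 59.4% and 67.2% of members without the letters. Their median resting H3K27ac was 9.6, against 15.0 without, and their median resting p300 was 3.12, against 6.70.

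These levels and those that follow are tags in the authors' window, scaled for library size and composition onto the average scale of the deposited values, which are per 10000000 tags. In resting cells the members were lightly marked. The median H3K27ac under PBS was 14.7, with quartiles of 5.03 and 49.3, against 94.0 at promoter SREBP sites, 88.5 at regions with both factors and 43.3 at distal LXR sites. Input libraries gave member medians of 6.83 to 7.70 on the deposited scale. The members' median p300 was 6.68, against 12.0 at promoter sites, 29.4 at regions with both factors and 12.0 at distal LXR sites. Members with an ATAC peak had a median H3K27ac of 20.6 and those without had 9.07.

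**Figure D2:**
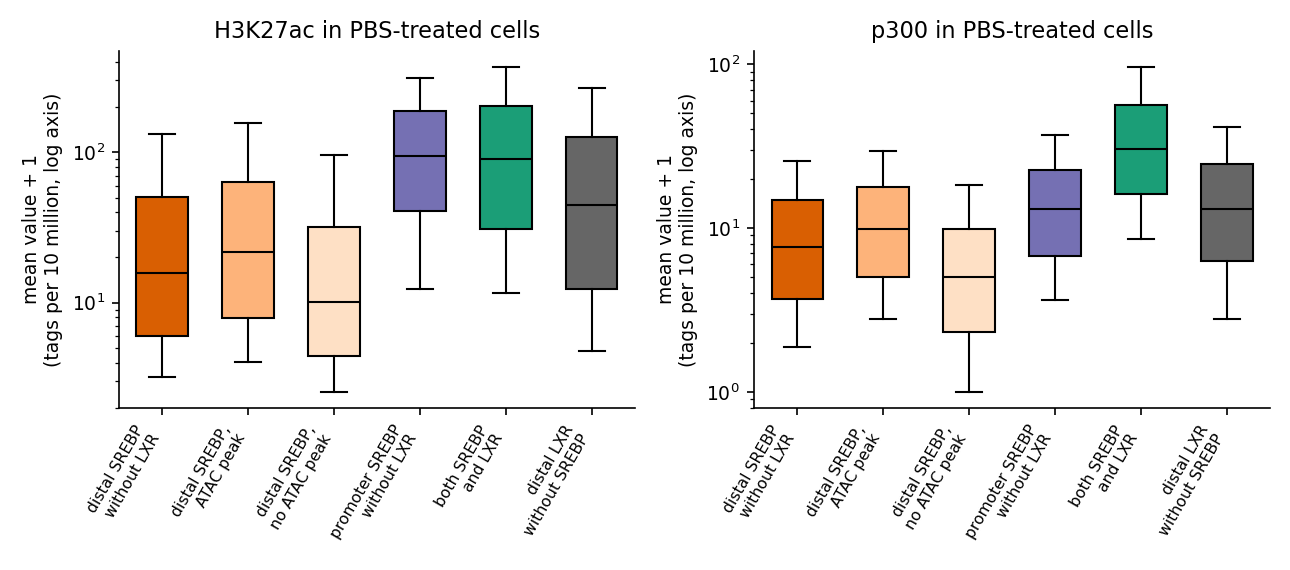
Mean resting H3K27ac (left) and p300 (right) per region under PBS, as value + 1 on a log axis, by kind of region, with the members also split by ATAC peak. Boxes span the quartiles around the median, and whiskers run from percentile 10 to percentile 90. The members sit lowest of the 4 kinds, with medians of 14.7 for H3K27ac and 6.68 for p300.

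A small set of members was strongly acetylated at rest. H3K27ac under PBS in intron 7 of 24 of Synj2, a phosphoinositide phosphatase, was 896 and 1121 at 2 h and 1138 at 6 h. At a region -33879 bp from Ccr2, the receptor that brings monocytes to inflamed tissue, it was 785 and 1017 at 2 h and 988 at 6 h. At a region near Ccr3, another chemokine receptor, it was 702 and 1113, then 1082. In each of these 3 members the first PBS replicate was the lowest library. For p300, the highest resting member by mean value was in intron 5 of 15 of 2010111I01Rik, at 451 at 2 h and 496 at 6 h. Its p300 was 117 and 77.5 under LPS at 2 h (-2.23, limma adjusted p = 0.0588, or 0.00131 with the block). The member near D730003I15Rik, whose sterol element window is printed above, had 592 at 2 h and 337 at 6 h, and overlapped neither an ATAC nor a p300 peak.

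LPS changed H3K27ac at members in both directions, at 481 without and 2587 with the replicate block at 2 h. At 2 h, 303 of the 11955 tested members were higher and 178 lower by limma at an adjusted p of 0.05, which is 2.53% and 1.49%. Over all 46195 tested regions 3.13% were higher and 2.16% lower, so the members' shares were below the background. The median member changed by -0.05 on the log2 scale, against 0.02 over all regions. With the replicate number as a block, 1295 members were higher and 1292 lower, beside 12.6% and 12.6% of all regions. Without composition factors (TMM), the calls were 257 higher and 246 lower. Without the members that had an LXR peak in the 1000 bp window, they were 279 higher and 139 lower. With a distance of at least 3000 bp from a start in place of the annotation, they were 245 higher and 163 lower. Leaving out a library left 44 calls without the second PBS replicate, 52 without the first LPS replicate, 80 without the second, and 144 without the first PBS replicate.

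At 6 h H3K27ac was higher at 43 members and lower at 3, or 0.36% and 0.0251%, against 0.359% and 0.0563% over all regions. The only PBS library at that time is of replicate 2, and leaving out either LPS library left 0 calls. EdgeR and voom each gave 0, DESeq2 gave 402, and the replicate block gave 673 higher and 415 lower, beside 5.17% and 4.73% of all regions. Without the library of conflicting labels, which enters only the shared spread, 15 were higher and 1 lower. Of the 43 higher members, 40 were also higher at 2 h, a share that was not set beside one over all regions. The change at 6 h was not shown to differ from that at 2 h. The limma test of that difference called 0 members in either mark, with 240 members of H3K27ac and 407 of p300 at an unadjusted p under 0.05. With the block it called 0 for H3K27ac and 2 for p300, of which that near Mir5626 had a log2 change 3.48 higher at 6 h than at 2 h (limma adjusted p = 0.0435).

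p300 was higher under LPS at 144 of 10113 tested members at 2 h (1.42%) and lower at 3 (0.0297%). Over all regions 1.21% were higher and 0.14% lower. These calls rest on 1 PBS library, and 107 of the 144 had 3 or fewer PBS tags, 58 of them none. At 6 h, 20 members were higher (0.198%) and 0 lower, against 0.126% and 0.00549% of all regions, and 13 of the 20 had 3 or fewer PBS tags. At 6 h, 211 members were below 0 at an unadjusted p under 0.05, and DESeq2 called 1 lower. EdgeR and voom called 0 p300 members at both times without the block, where limma put 1080 members above 0 and 313 below at an unadjusted p under 0.05 at 2 h. DESeq2 called 141 at 2 h and 113 at 6 h. With the block limma gave 584 higher and 131 lower at 2 h, beside 5.48% and 2.15% of all regions, and 285 higher and 13 lower at 6 h, beside 2.08% and 0.59%. Voom with the block gave 107 higher and 103 lower at 2 h. The authors' own scaling gave 0 calls at both times and moved the members' median p300 change from 0.14 to -0.75 at 2 h and from 0.24 to -0.72 at 6 h. Leaving out the first or the second LPS library left 42 and 48 calls at 2 h and 0 at 6 h.

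Of the 9727 members tested in both, 67 were higher in both at 2 h, which is 22.5% of the 298 higher in H3K27ac and 46.5% of the 144 higher in p300. At 6 h, 8 were higher in both, which is 19% of the 42 higher in H3K27ac, against 20 of 152 (13.2%) over all regions. At the members higher in H3K27ac at 2 h, the p300 change was above 0 in 291 of 298, with a median of 2.46 on the log2 scale. Over all regions the same was seen at 1271 of 1303, with a median of 2.10, and 17.0% of the 1303 were also called higher in p300. At the members lower in H3K27ac it was above 0 in 24 of 164, with a median of -1.28, against 87 of 948 and -1.38 over all regions. Without regard to calls, the p300 change at 2 h was above 0 in 53.8% of tested members and 51.4% of all regions. Both marks come from cells of the same design but from separate libraries.

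**Figure D3:**
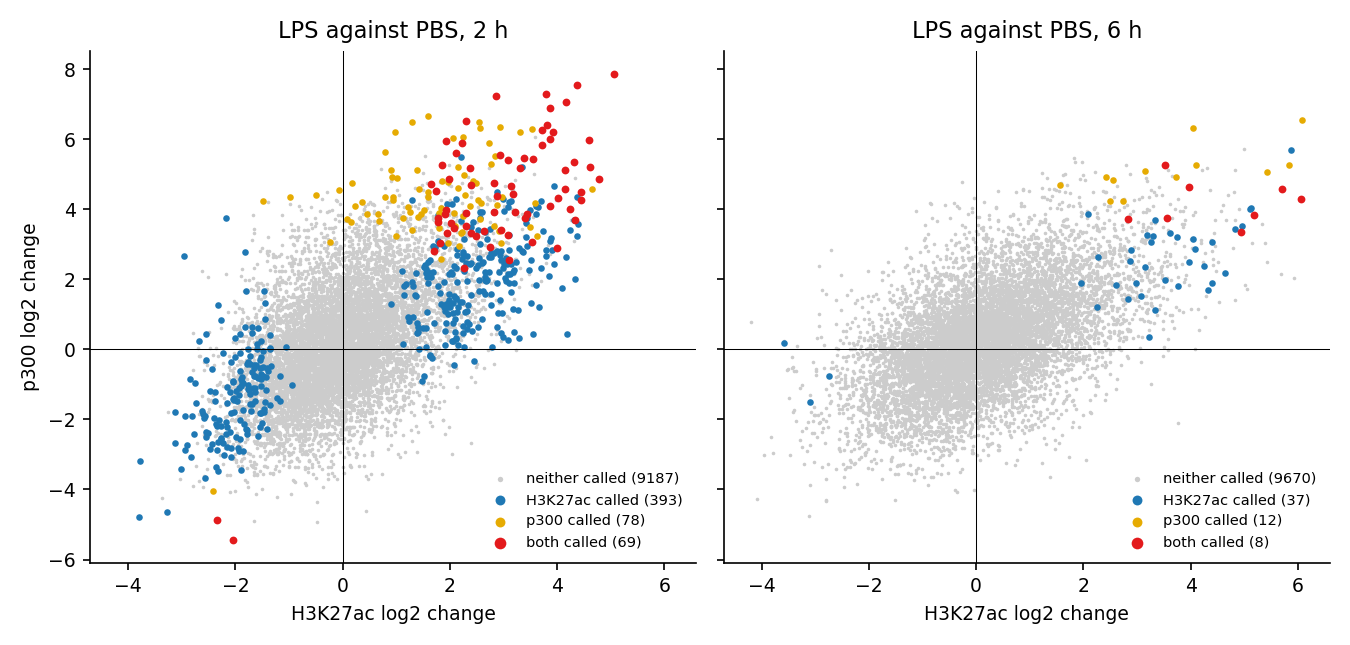
The log2 change under LPS in H3K27ac (x axis) against that in p300 (y axis) for each member tested in both, at 2 h (left) and 6 h (right), with called members in colour. Members higher in H3K27ac at 2 h lie above 0 in p300 in 291 of 298 cases.

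Sod2, the mitochondrial superoxide dismutase and an NF-kB target, held one of the largest rises. Its intronic member, at +2289 bp, had H3K27ac of 40.5 and 19.9 under PBS and 633 and 551 under LPS at 2 h. Under 3'SL with LPS it had 536 and 532, and under 3'SL alone 25.6 and 15.8. All 4 LPS-treated libraries stood above both PBS libraries, the log2 change under LPS was 4.33 ± 0.54 (SE), and the limma adjusted p was 0.00365. At 6 h it was 17.0 under PBS and 625 and 489 under LPS (4.94 ± 0.66, limma adjusted p = 0.0218), a call that ended without either LPS library, at adjusted p of 0.122 and 0.163. p300 was 26.9 under PBS and 414 and 317 under LPS at 2 h (3.70 ± 0.53, limma adjusted p = 0.00331).

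The member in the locus of Mir21a, a microRNA induced in activated macrophages, lies -34639 bp from its annotated start. Its H3K27ac was 48.6 and 87.7 under PBS, 565 and 640 under LPS and 518 and 596 under 3'SL with LPS at 2 h. Under 3'SL alone it was 47.9 and 73.3, so groups with and without LPS did not overlap. The log2 change was 3.18 ± 0.34, with a limma adjusted p of 0.0025. p300 moved the same way, from 14.4 under PBS to 395 and 279 under LPS (4.44 ± 0.58, limma adjusted p = 0.00243).

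Gnptab makes the enzyme that tags lysosomal proteins for delivery. At a member -6670 bp from it, H3K27ac was 7.2 and 13.9 under PBS and 273 and 210 under LPS at 2 h. Under 3'SL with LPS it was 172 and 174, below both LPS libraries and above both PBS libraries. The log2 change under LPS was 4.44 ± 0.48, with a limma adjusted p of 0.00274.

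Sod2, Mir21a and Gnptab, with 1600002D24Rik, Kremen1 and Mir3095, kept their 2 h H3K27ac calls in every alternative tried. At Kremen1 H3K27ac was 6.3 and 3.98 under PBS and 79.5 and 102 under LPS (3.92 ± 0.51, limma adjusted p = 0.00405). Its window, in a LINE repeat and without an ATAC peak, holds the NF-kB letters shown above. At the exon of the non-coding transcript 1600002D24Rik, H3K27ac was 12.6 and 5.98 under PBS and 127 and 194 under LPS (4.02 ± 0.52, limma adjusted p = 0.00405). At Mir3095 it was 13.5 and 22.9 under PBS and 376 and 403 under LPS (4.39 ± 0.42, limma adjusted p = 0.0023). In all 3 the PBS and LPS libraries lay far apart, which restates the call and is no further evidence.

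Other members went from almost no signal to a clear one. At Trp53i11 the H3K27ac values were 0 and 0.996 under PBS and 28.3 and 38.5 under LPS, a 70.1-fold ratio with a 95% counting interval of 12.3 to 2801 (limma adjusted p = 0.0121). Under 3'SL with LPS they were 48.3 and 48.2, above both LPS libraries. Each library left out in turn ended that call, with adjusted p from 0.0613 to 0.0767. The Trim30a member had H3K27ac of 1.8 and 1.99 under PBS and 147 and 60.9 under LPS (5.05 ± 1.17, limma adjusted p = 0.0324), and p300 of 0 and then 207 and 258. Its call also ended without any 1 of the 4 libraries, with adjusted p from 0.0879 to 0.196. Trim30a belongs to a family of near-identical copies and its window is a repeat, so the placing of its reads is uncertain.

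N4bp1, a suppressor of cytokine signalling in macrophages, had the largest H3K27ac rise among members called at 6 h. Its intronic member had 3.4 under PBS and 326 and 257 under LPS at 6 h (6.05 ± 1.02, limma adjusted p = 0.0391), and 17.1 and 4.98 under PBS and 285 and 119 under LPS at 2 h (4.15 ± 0.84, limma adjusted p = 0.0181). Its p300 was 5.39 under PBS and 187 and 121 under LPS at 2 h (limma adjusted p = 0.00296). Libraries with and without LPS lay apart in both marks. The H3K27ac call ended at 6 h without either LPS library, at adjusted p of 0.153 and 0.201, and at 2 h without any library but the first PBS replicate, at up to 0.151.

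**Figure D4:**
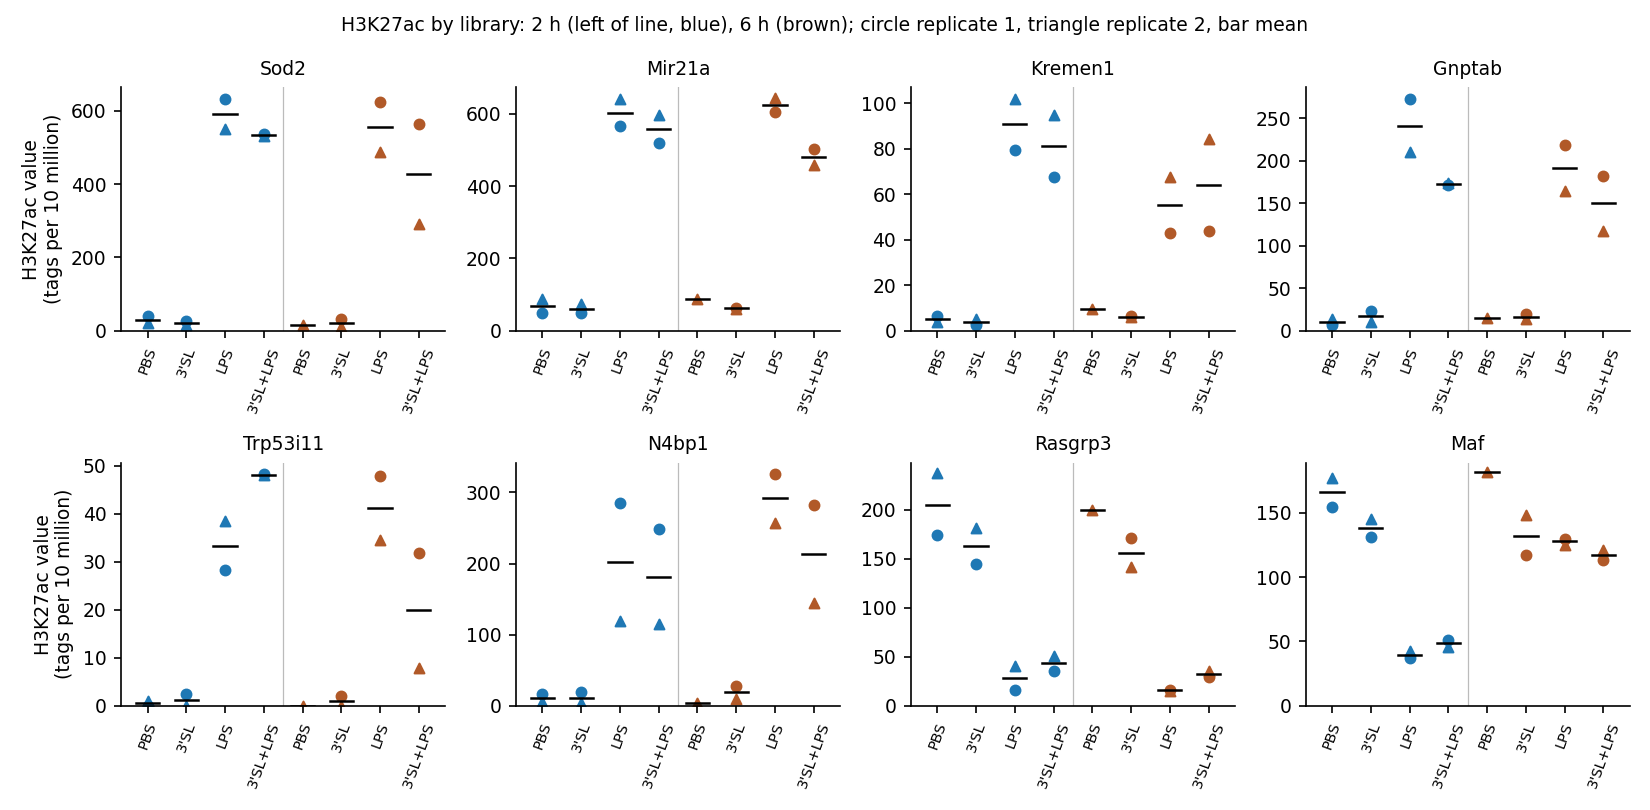
H3K27ac by library for selected members, with circles for replicate 1, triangles for replicate 2 and a bar at the mean, 2 h in blue and 6 h in brown for each treatment. At Sod2 and Mir21a every library with LPS stands above every library without it, and at Rasgrp3 every one stands below.

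Of the NF-kB target genes listed, 24 of 39 had members, 53 in all. H3K27ac at 2 h was higher at 9 of the 52 tested and lower at 0, beside 3.13% and 2.16% of all regions. The median change was 1.31, against 0.02 over all regions, and 44 of 52 were above 0. At an unadjusted p under 0.05, 25 were above 0 and 0 below. At 6 h, 1 was higher in H3K27ac, beside 0.359% of all regions. p300 was higher at 1 of 45 at each time, beside 1.21% of all regions at 2 h and 0.126% at 6 h. EdgeR called 10 and voom 9 of the members in H3K27ac at 2 h, and both called 0 in p300. With the replicate block limma called 26 in H3K27ac at 2 h and 10 at 6 h, and 11 and 4 in p300. In H3K27ac the block called 12.6% of all regions higher and 12.6% lower at 2 h, and 5.17% and 4.73% at 6 h. In p300 it called 5.48% and 2.15% at 2 h, and 2.08% and 0.59% at 6 h. The list was drawn with earlier results of these data known and its count is a description.

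Tnf, the gene of the cytokine TNF, had 2 called members whose 1000 bp windows overlap, so they share tags. The one in intron 1 of 3 had H3K27ac of 310 and 218 under PBS, 662 and 852 under LPS, and 647 and 623 under 3'SL with LPS at 2 h. The groups did not overlap, and the change under LPS was 1.53 ± 0.30 (limma adjusted p = 0.0156). The call ended without any library but the first PBS replicate, at adjusted p up to 0.134. Icam1, an adhesion molecule with its member at +798 bp, had 24.3 and 55.8 under PBS and 284 and 314 under LPS (2.98 ± 0.46, limma adjusted p = 0.00743). Without the first LPS replicate its adjusted p was 0.054, and without the second 0.0519. A member -28302 bp from Il1a, the gene of interleukin 1 alpha, had 36 and 19.9 under PBS and 169 and 242 under LPS (2.87 ± 0.50, limma adjusted p = 0.0102). This call too ended without any library but the first PBS replicate, at adjusted p up to 0.0941. These 3 genes are textbook targets of LPS signalling.

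Members near Nfkbiz and Tlr2 were also higher. Nfkbiz, an inducible NF-kB cofactor, had 78.2 and 159 under PBS and 488 and 539 under LPS (2.19 ± 0.50, limma adjusted p = 0.03). Tlr2, the receptor of bacterial lipoproteins, had 42.3 and 47.8 under PBS and 196 and 140 under LPS (1.86 ± 0.41, limma adjusted p = 0.0252). Both calls ended without any 1 of the 4 libraries, at adjusted p up to 0.166 and 0.17. Il10, the gene of an anti-inflammatory cytokine, had a member called in p300 alone. That p300 was 0 under PBS and 43.1 and 34 under LPS, at least 7.2-fold higher (limma adjusted p = 0.00425). The same member's H3K27ac was 16.2 and 14.9 under PBS and 244 and 50.1 under LPS, with a limma adjusted p of 0.0688, or 0.000766 with the replicate block.

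Interferon response genes had 17 members at 12 of the 31 genes listed. At 2 h H3K27ac was higher at 2 of 17 and p300 at 3 of 16, where 3.13% and 1.21% of all regions were. Limma called 0 lower in either mark, where 1 in H3K27ac and 0 in p300 were below 0 at an unadjusted p under 0.05. At 6 h limma without the block, edgeR and voom called 0 in either mark. Of the members, 3 in each mark were above 0 at an unadjusted limma p under 0.05, and DESeq2 called 3 in H3K27ac. With the replicate block limma called 8 in H3K27ac at 2 h and 3 at 6 h, and 4 and 1 in p300. The shares of all regions called with the block are those given with the NF-kB targets. The intronic member of Gbp5, a guanylate binding protein of interferon responses, had H3K27ac of 6.3 and 3.98 under PBS and 214 and 80.1 under LPS at 2 h (4.45 ± 0.73, limma adjusted p = 0.00889). The LPS libraries differed from each other but both stood above the PBS ones. Without the first LPS replicate the adjusted p was 0.0777, and without the second PBS replicate 0.0763. Usp18, an enzyme that removes ISG15, had 7.2 and 3.98 under PBS and 29.7 and 35.4 under LPS (2.39 ± 0.48, limma adjusted p = 0.0177). That call ended without any library but the first PBS replicate, at adjusted p up to 0.141.

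The letters of inflammatory factors were counted in members called in H3K27ac at 2 h. NF-kB letters were in 26 of the 303 (8.6%), in 1.4% of the tested members and in 1 of the 178 lower members. IRF letters were in 36 of the 303 (11.9%), in 5.3% of those tested and in 3 of the 178 lower. AP-1 letters were in 21.8%, 18.9% and 20.8% of the 3 sets. The sterol element was in 14 of the higher members (4.6%), 3.6% of those tested and 5 of the lower (2.8%). Among the 144 members higher in p300 at 2 h, NF-kB letters were in 20 (13.9%), against 1.5% of the members tested in p300. The sterol element was in 3.5% of the 144, near the 3.0% of those tested. Motif content was not used to choose or call members, and no test was made of these shares.

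**Figure D5:**
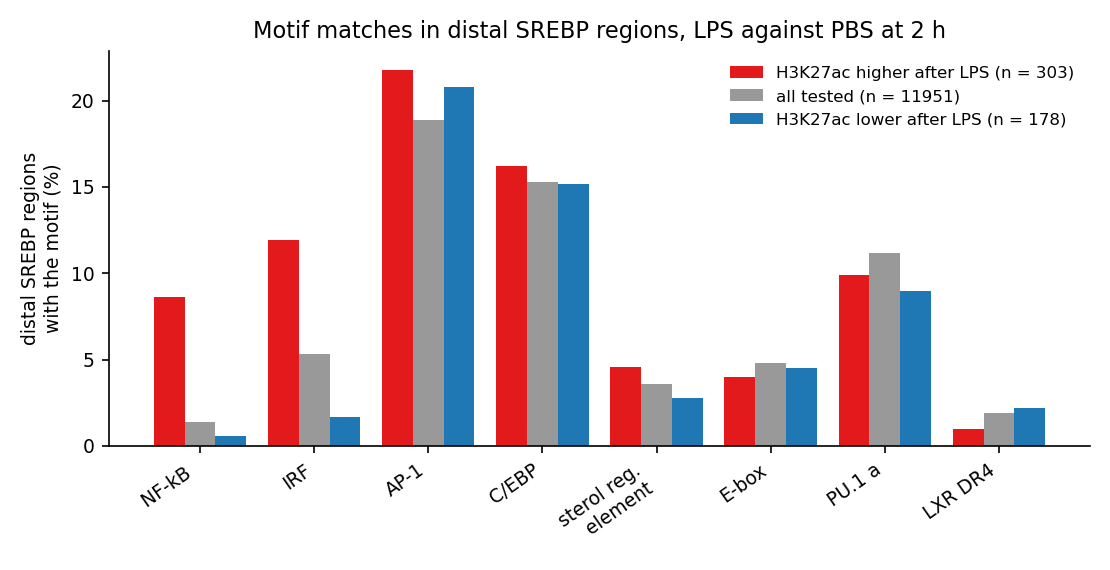
The percent of members holding each motif, for members with H3K27ac higher under LPS at 2 h, all tested members and members with it lower. NF-kB letters were in 8.6%, 1.4% and 0.6%, while the sterol element differed less, at 4.6%, 3.6% and 2.8%.

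Of the members lower under LPS, those that follow had clear signal at rest. The Maf member with the sterol element shown above, +123540 bp from the gene, had H3K27ac of 155 and 177 under PBS, 37.3 and 42.4 under LPS, and 51.5 and 45.5 under 3'SL with LPS at 2 h. Under 3'SL alone it was 131 and 145. Groups with LPS lay below groups without it, and the change was -2.03 ± 0.30 (limma adjusted p = 0.00654). Its adjusted p was 0.0613 without the second PBS replicate and 0.054 without the first LPS replicate. At 6 h the values were 182 under PBS and 130 and 125 under LPS (-0.51, limma adjusted p = 0.625). Another Maf member, +314355 bp away, had p300 of 12.6 under PBS and 138 and 170 under LPS at 2 h (3.51 ± 0.66, limma adjusted p = 0.0163, or 0.0699 and 0.10 without the first and the second LPS replicate).

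Ctsd, the lysosomal protease cathepsin D, had H3K27ac of 409 and 527 under PBS and 120 and 129 under LPS at 2 h (-1.89 ± 0.27, limma adjusted p = 0.00584). Without the second PBS replicate the adjusted p was 0.0607. Rasgrp3, an exchange factor of Ras, had 174 and 237 under PBS, 15.9 and 40.1 under LPS and 35.2 and 50.9 under 3'SL with LPS (-2.95 ± 0.45, limma adjusted p = 0.00698). At 6 h it was 200 under PBS and 16 and 15.4 under LPS (-3.59 ± 0.55, limma adjusted p = 0.0297). Rasgrp3 was thus called lower at both times, though each single library left out at 6 h ended that call, at adjusted p of 0.142 and 0.172. At 2 h its adjusted p was 0.0688 without the second PBS replicate and 0.0542 without the first LPS replicate.

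Limma called 2 members lower in both marks at 2 h, which is 1.22% of the 164 lower in H3K27ac. Over all regions it was 33 of 948 (3.48%). Atp6v0d2, a proton pump subunit of macrophages and osteoclasts, had H3K27ac of 381 and 891 under PBS and 92.6 and 139 under LPS at 2 h (-2.35 ± 0.49, limma adjusted p = 0.0211). Its p300 was 66.4 under PBS and 1.23 and 1.36 under LPS (-4.88 ± 0.80, limma adjusted p = 0.00703). The member in intron 1 of 8 of Gm10677 had H3K27ac of 344 and 475 under PBS and 89.2 and 107 under LPS (-2.04 ± 0.36, limma adjusted p = 0.0105), and p300 of 104 and then 4.93 and 0. Both H3K27ac calls ended without any library but the first PBS replicate, at adjusted p up to 0.18 at Atp6v0d2 and 0.098 at Gm10677. Without the second LPS replicate the p300 adjusted p at Gm10677 was 0.12. Both members' LPS libraries lay below every PBS library in both marks, with 1 PBS library in p300. That restates the calls and is no further evidence.

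Macrophage lineage genes had 77 members at 23 of 27 genes, and 4 held a sterol element. With 2.16% of all regions lower, H3K27ac was lower at 3 of 76 at 2 h and limma called 0 higher, with 5 above 0 and 5 below at an unadjusted p under 0.05 (edgeR and voom called 2 each). p300 was higher at 1 of 66. The median H3K27ac change was 0.14 at 2 h and -0.05 at 6 h. The member in intron 2 of 6 of Runx1 had 90.8 and 102 under PBS and 41.5 and 27.7 under LPS (-1.47 ± 0.36, limma adjusted p = 0.0405). Each library left out ended that call, at adjusted p up to 0.21.

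Lipid genes include the classical targets of SREBP. The rule left out their promoter sites and their regions with an LXR peak, so member counts at these genes do not measure SREBP binding there. Limma called 0 of the lipid gene members under LPS in either mark or at either time. At so few members that is near the background of 3.13% higher and 2.16% lower in H3K27ac at 2 h. Sterol genes had 16 members at 10 of 30 genes (among them Acat2, Dhcr7, Idi1, Insig1, Npc2, Sc5d, Scap and Srebf2), and none held the sterol element letters. Fatty acid genes had 18 at 9 of 27, with 2 sterol elements, and LXR target genes had 13 at 10 of 17, with 1. EdgeR and voom also called 0, DESeq2 called 1 sterol member at 2 h, and the block called 5, 3 and 3 in H3K27ac at 2 h. At 6 h the block called 1, 0 and 1 in H3K27ac. In p300 it called 2 fatty acid members at 2 h and 1 LXR target member at 6 h. At an unadjusted p under 0.05 in H3K27ac at 2 h, limma put 3 sterol members above 0, 3 fatty acid members below 0, and 1 LXR target member on each side. The median H3K27ac change at 2 h was -0.13, -0.67 and -0.26 in the 3 lists, and at 6 h 0.84, -0.05 and 0.22.

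Individual lipid members varied between replicates. At Fasn, whose element is printed above, H3K27ac was 96.2 and 41.8 under PBS and 49.1 and 87.1 under LPS at 2 h (0.04, limma adjusted p = 0.982). At Lpl H3K27ac was 276 and 199 under PBS and 167 and 210 under LPS (-0.32, limma adjusted p = 0.70). At Abca1, the cholesterol exporter, it was 111 and 119 under PBS and 162 and 107 under LPS (0.20, limma adjusted p = 0.836). The PBS and LPS groups overlapped at Fasn, Lpl and Abca1. Near Scd2, a desaturase, the upstream member was 123 and 94.6 under PBS and 38.7 and 47.8 under LPS (-1.31, limma adjusted p = 0.225, or 0.0321 with the block).

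3'SL made no member pass the test. Given with LPS and compared with LPS alone, 0 members were called in either mark at either time, and 0 of all regions (percent called 0). At an unadjusted limma p under 0.05 there were 38 members of H3K27ac at 2 h (0.318%) and 66 at 6 h (0.552%). In p300 there were 131 (1.3%) and 245 (2.42%). These shares are below the 0.05 that a calibrated test gives where nothing changes. The test without the block was thus conservative here, and 0 calls do not show that 3'SL changed nothing. EdgeR, DESeq2, voom and limma with the block also called 0. The median member changed by -0.02 and 0.02 in H3K27ac and by -0.05 and -0.07 in p300. For 3'SL alone against PBS limma called 0 members in either mark (percent called 0), with 72 and 179 at an unadjusted p under 0.05 in H3K27ac and 606 and 229 in p300. With the replicate block, p300 after 3'SL alone gave 20 members at 2 h and 1 at 6 h, beside 0.156% of all regions higher at 2 h.

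Limma called 0 members of the listed gene groups when 3'SL was added to LPS, beside 0% of all regions, and no test of a group was made. This comparison shares its LPS libraries with that of LPS against PBS, so the 2 are set side by side and no relation between them is drawn. At NF-kB target genes the median H3K27ac difference between 3'SL with LPS and LPS was -0.29 at 2 h, with 10 of 52 above 0, and -0.25 at 6 h, with 18 above 0. At interferon genes it was -0.42 and -0.06. Over all regions it was 0.01 and 0.04. At Gnptab the values under 3'SL with LPS were 172 and 174, against 273 and 210 under LPS, while at Icam1 they were 312 and 361 against 284 and 314.

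When 3'SL was added to LPS for 2 h, the H3K27ac member with the smallest p was at Pcyt1b, a phosphatidylcholine synthesis enzyme. Its H3K27ac was 0 and 0 under LPS and 6.52 and 6.76 under 3'SL with LPS, at least 6.1-fold higher, with a limma adjusted p of 1. The same member was called lower under LPS, at 6.3 and 15.9 under PBS (-3.47 ± 0.64, limma adjusted p = 0.0129), a call that ended without any library but the first PBS replicate, at adjusted p up to 0.12. Near Ctsc, a lysosomal protease, H3K27ac was 12.4 and 9.24 under LPS and 2.61 and 0.902 with 3'SL added (-2.16, limma adjusted p = 1). These are members of few tags, and in this comparison members were named for a small p. That their groups did not overlap follows from that choice and adds no support. B930018H19Rik, whose sterol element is shown above, had p300 of 0 in the 2 h PBS library, 16 and 25.8 under LPS and 50.4 and 18.2 under 3'SL, and was called under LPS (limma adjusted p = 0.0136) and not under 3'SL. The LPS call ended without either LPS library, at adjusted p of 0.0513 and 0.0927.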

How the data were processed

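Per the labels' protocols, cells were fixed with formaldehyde for H3K27ac, and with DSG and formaldehyde for p300, LXR and SREBP. Per the submitters' processing notes, reads were handled with Bowtie2, HOMER and DESeq2 on mm10, versions not given in the sources used here. The authors deposited signal per region as tags scaled to 10000000 per library, in a 1000 bp window for H3K27ac and a 200 bp window for p300. With the library totals in the file headers, 100.0% of values came out as whole tags within 0.05. The SREBP and LXR lists were used for peak positions only. Of the per-sample columns, 5 could not be matched to 1 sample and were not used. Of the table's 80096 regions, 40587 came from the p65 peak list alone, of which 2.78% of peaks overlapped an ATAC peak against 71.36% to 84.07% in the other lists, and 30 lay on scaffolds named as in mm9. It was not settled whether that list's coordinates are of mm10, and its regions were part of the fit over all regions. The planned split by p65 peaks is not given.

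The tags were scaled by tags in tested regions times TMM factors, and log2(value + 1) was tested with limma 3.58.1 (R 4.3.3, trended moderated test, two-sided). The fit took the whole table after edgeR's filterByExpr (edgeR 4.0.16), with 1 mean per timed group and a residual of 7 degrees of freedom for H3K27ac and 6 for p300. P-values were adjusted by Benjamini-Hochberg over all tested regions, with a threshold of 0.05. A fold against a group at 0 used a floor of 3 tags over the group, and a fold on 1 to 3 tags has an exact 95% counting interval, which covers counting error only. A group with 1 library was assumed to vary like the others. On simulated data, this test gave false calls where the single p300 PBS library held few tags, so tag numbers stand beside the p300 counts. Deviations of same-numbered replicates from their group means correlated at 0.467 to 0.697 in H3K27ac and 0.236 to 0.466 in p300. The replicate numbers thus pair the libraries, and the fit with the replicate number as a block is given beside the counts that it changes. The overlaps between marks and the motif shares of called members use the calls without the block. Alternatives were edgeR, DESeq2 1.42.0, voom weights, other scalings, filters and pseudocounts, other rules for the members, and leaving out libraries.

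Members and gene lists were chosen with earlier results of these data known. Where a called member is described, a gap between its groups of libraries restates the call and is no further evidence. Members are named where they had 1 of the 6 largest changes in each direction among those called in a comparison and mark (or the 3 smallest p where under 3 were called), 1 of the 8 highest resting levels, a listed nearest gene, a nearest gene with 4 or more members, or the same call in both marks. Letters were searched with Python 3.11.15 in the RefSeq GRCm38.p6 genome, the build of the files, in 13504 of the 13508 windows. Some members are not reported here.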

Additional observations from a re-analysis of the deposited data

How the results depend on the processing

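Counts of called members changed with the tool, the scaling, the filter, the block and the libraries. For H3K27ac at 2 h under LPS, 481 members were called. DESeq2 called 1094, the authors' scaling 319, no filter on low values 272, and only the PBS and LPS groups 194. The replicate block gave 2587 with limma, 2578 with edgeR and 2589 with voom weights. Leaving out 1 library gave 44 to 144. For H3K27ac at 6 h, 46 were called. DESeq2 called 402, the authors' scaling 19, edgeR 0, voom 0, no filter 13, only the PBS and LPS groups 0, and the table without the 2 h library of conflicting labels (3'SL with LPS, replicate 2) 16. The block gave 1088 with limma, 999 with edgeR and 830 with voom, and leaving out 1 library gave 0 to 0.

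For p300 at 2 h, 147 were called. The authors' scaling gave 0, edgeR 0, voom 0, no filter 54 and only the PBS and LPS groups 79, while the block gave 715 with limma, 401 with edgeR and 210 with voom. Leaving out 1 library gave 42 to 48. For p300 at 6 h, 20 were called. DESeq2 gave 113, the authors' scaling 0, edgeR 0, voom 0, no filter 10, only the PBS and LPS groups 0 and scaling without TMM 11. The block gave 298 with limma, 319 with edgeR and 192 with voom, and leaving out 1 library gave 0 to 0. For p300 after 3'SL alone, 0 became 20 at 2 h and 1 at 6 h with the limma block, and 2 and 3 with no filter. The cause of these differences was not tested.

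The authors' scaling put the median p300 change of all regions at -0.87 at 2 h and -1.04 at 6 h, with the members at -0.75 and -0.72. All 115 named calls kept their direction in every alternative run for them, and all 115 stayed past the threshold with the limma replicate block, which ended no other call. Only 7, all of H3K27ac at 2 h, stayed past the threshold in every alternative. The p300 PBS groups have 1 library each, of 3199270 and 7106052 tags.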
